A study of Mus musculus with 12 samples.

Results

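Brain tissue taken 12 h after photodynamic therapy (PDT) was compared, gene by gene, with brain tissue taken 1.5 h after it, so the comparison covers what changed between an early and a later time after one treatment. Mice had received 5-aminolevulinic acid (5-ALA, the precursor from which cells make the light-sensitive heme intermediate protoporphyrin IX) at 20 mg/kg, were left for 30 min, and were then exposed to a 635 nm laser at 20 J/cm2. Each time had 3 libraries, 6 of the 12 in the series, and the other 6 were 3 controls and 3 taken at 48 h. The controls carry PBS in their titles and untreated as their treatment label, and the labels do not say whether PBS was injected or light was given to them. The labels also name both BALB/c and C57BL/6 for every mouse. Animals were kept under specific pathogen-free conditions and perfused with saline before the brain was taken. Age, sex, brain region, hour of collection and whether each library came from a separate animal are not given in the labels, so p-values measure the spread between these libraries, which may be technical. Levels are in FPKM, fragments per kilobase of gene relative to a library total that the authors had scaled between libraries. Of the 54532 genes in the deposited table, 16291 were above 0.5 FPKM in at least 3 of the 6 libraries, and these are the genes described here.

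Light absorbed by protoporphyrin IX produces singlet oxygen, which oxidises proteins and lipids close to where it forms. Damaged proteins release heat shock factor, which switches on chaperone genes. Calcium and kinase signals switch on immediate early genes such as Fos and Atf3, whose products are transcription factors. Alarm signals from injured cells act through NF-kB in microglia and endothelium to raise chemokines and cytokines, and microglia, the resident macrophages of the brain, then lose the genes that mark their resting state while astrocytes raise intermediate filament genes.

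In the 6 libraries, 15348579 to 16594959 reads fell in genes. Values are given throughout in the order replicates 1, 2 and 3 for 1.5 h, and replicates 1, 2 and the library with no matching number in the labels for 12 h. The 3 libraries of 12 h resembled one another, with correlations of log2 values between 0.980 and 0.985 across genes, whereas those of 1.5 h ranged from 0.913 to 0.978. Replicates 1 and 3 of 1.5 h had 12.43% and 9.14% of their reads in mitochondrial genes, against 4.16% in replicate 2 and 4.66% to 5.29% at 12 h. In the same replicates, long genes read low and genes between 500 and 3000 bases read high, and replicate 2 lacked this trend. For genes of 1000 to 2000 bases the median log2 difference of the 12 h mean from replicates 1, 2 and 3 was -0.58, 0.05 and -0.37, and for genes over 6000 bases it was 0.46, -0.04 and 0.31. Calls below are therefore given over all 3 libraries of 1.5 h and against replicate 2 alone. A gene said not to rise or fall against replicate 2 missed the threshold there and may still have read higher or lower. The neuron markers fixed for the tissue check, such as Snap25 and Map2, were all expressed, with a summed level of 1940 FPKM in replicate 2 of 1.5 h and 1717, 1719 and 1682 FPKM at 12 h.

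**Figure D1:**
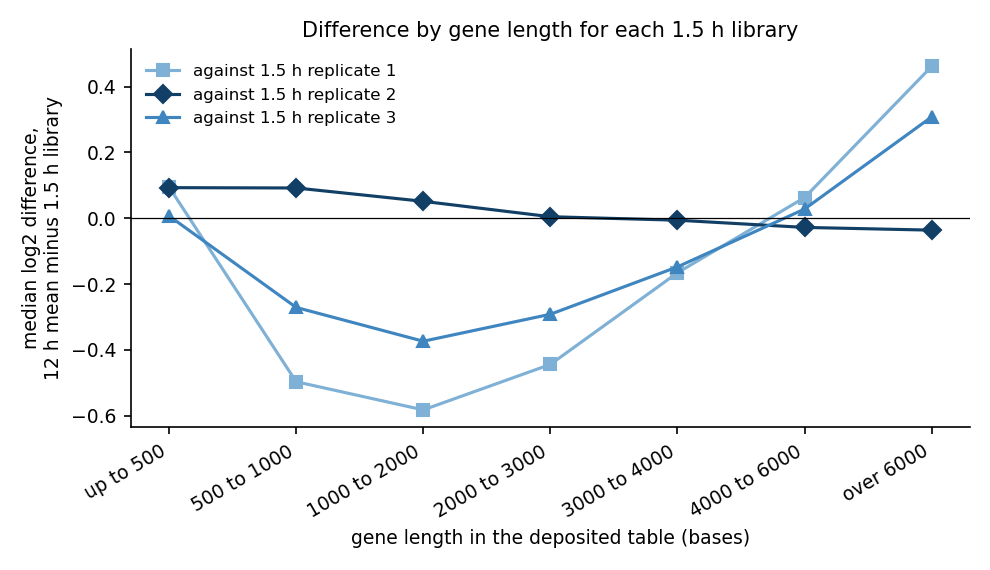
Median log2 difference between the 12 h mean and each 1.5 h library (y axis) for genes grouped by length in bases (x axis), 1 line per 1.5 h library. Replicates 1 and 3 run from below 0 at 1000 to 2000 bases (-0.58 and -0.37) to above 0 past 6000 bases (0.46 and 0.31), and replicate 2 stays within 0.09 of 0.

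Across all genes tested, 2981 rose from 1.5 h to 12 h (18.3% of genes) and 2921 fell (17.9%) at a false discovery rate of 5% in limma. Against replicate 2 alone as well, 1186 of the risers passed (7.28% of all genes) and 629 of those that fell passed (3.86%). At least 2-fold changes numbered 886 among the rises and 704 among the falls, and among the calls that also passed against replicate 2 they numbered 626 and 167. Counts in the lists below are to be read beside the shares of all genes, 18.3% and 17.9%. Of the 16291 genes, 3619 had every 12 h library above every 1.5 h library, and 3413 had every one below. Groups that do not overlap were therefore common. The median change over all genes was -0.01 on the log2(FPKM + 1) scale over the 3 libraries and -0.003 against replicate 2. The deposited values match a scaling by median-of-ratios size factors, which places the median gene near 0 in advance. The numbers below are therefore relative to a centre that the scaling set, not one that was measured. Scaling all libraries to the same FPKM total would move that centre to 0.295 and the share of rises among the calls from 50.5% to 78.3%. Group medians given below kept their sign under that scaling, quantile normalization, removal of the length trend, and with replicate 2 alone or left out, except where a turn is stated. The genes that rose were longer (median 4899 bases) and those that fell shorter (2866) than all genes tested (3692), whereas among the calls that also passed against replicate 2 the medians were 4023 and 3568 bases. Of the risers, 2050 were above 0.5 FPKM in every 1.5 h library, and 483 had entered the test only through their 12 h values. Those 483 were among 549 genes that entered in this way, so the filter largely set their direction in advance. The counts of rises in the lists below include such genes, and their number in each list is not given.

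**Figure D2:**
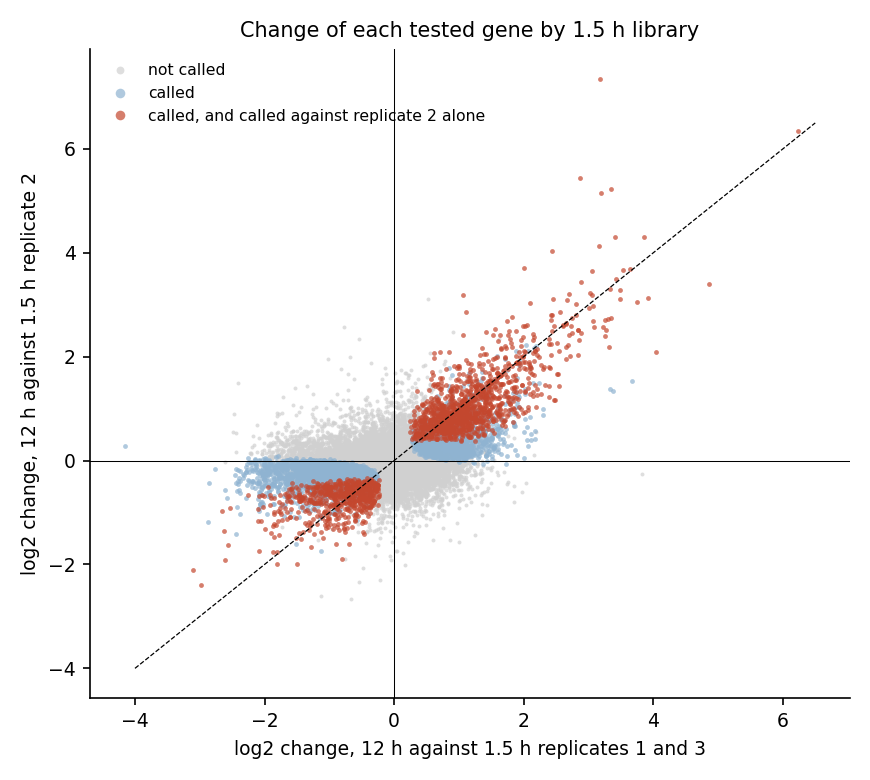
Log2 change to 12 h from 1.5 h replicates 1 and 3 (x axis) and from 1.5 h replicate 2 (y axis), 1 point per gene tested, with a dashed line where both are equal. Genes called only over the 3 libraries (blue) spread flat along the x axis, and those also called against replicate 2 alone (red, 1186 rises and 629 falls) follow the dashed line more closely.

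The widest rise of a gene with non-overlapping groups was that of Spp1, which encodes the secreted phosphoprotein osteopontin. Spp1 read 0.799, 0.706 and 0.867 FPKM at 1.5 h and 112, 115 and 203 FPKM at 12 h, a log2 change of 6.27 ± 0.51 (SE, adjusted p = 4.46e-05). The 1.5 h libraries lay close together below 1 FPKM and all 12 h libraries lay above 100. Inhba, the subunit that forms activin A, read 3.18, 1.39 and 1.5 FPKM and then 24.4, 51.2 and 77.5 FPKM, a log2 change of 4.01 ± 0.40 (SE, adjusted p = 1.04e-04). Every 12 h library exceeded every 1.5 h library, and the unnumbered one was the highest of them. Spty2d1, a histone chaperone, read 1.59, 3.05 and 2.75 FPKM and then 39.4, 38.2 and 26.3 FPKM, which gave the smallest SE among the 15 largest rises of genes of at least 500 bases, at a mean of at least 1 FPKM and with non-overlapping groups (3.37 ± 0.19, adjusted p = 5.46e-06). The other members of those 15 were Ccl3, Ccl4, Ccl11, Nts, Atf3, Hspa1a, Hspa1b, Thbs1, Cd14, Socs3, Emp1 and Ly6a, and each is described with its group. Among the 15 largest falls under the same limits, 9 also fell against replicate 2 alone, namely P2ry12, Crybb1, Tmem119, Selplg, Fabp3, Limd2, Plk5, Dact2 and the noncoding Gm12371. The other 6, Rasl10a, Rph3a, Naa38, Hes5, Mgst3 and Neurod6, did not pass against replicate 2. They read highest in replicate 1 or 3 of 1.5 h, but so did P2ry12, Crybb1, Tmem119, Selplg, Fabp3 and Plk5 among the 9. Replicate 2 was the lowest 1.5 h library in each of these held falls. The call of Rph3a was also lost without 1.5 h replicate 1 or 3 (adjusted p 0.06 to 0.0651). Fabp3, a fatty acid carrier, shows the first kind, at 393, 93.1 and 229 FPKM and then 46.03, 49.2 and 44.9 FPKM, and Mgst3, a glutathione transferase, the other, at 453, 76.8 and 225 FPKM and then 46.7, 56.8 and 51.1 FPKM.

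**Figure D3:**
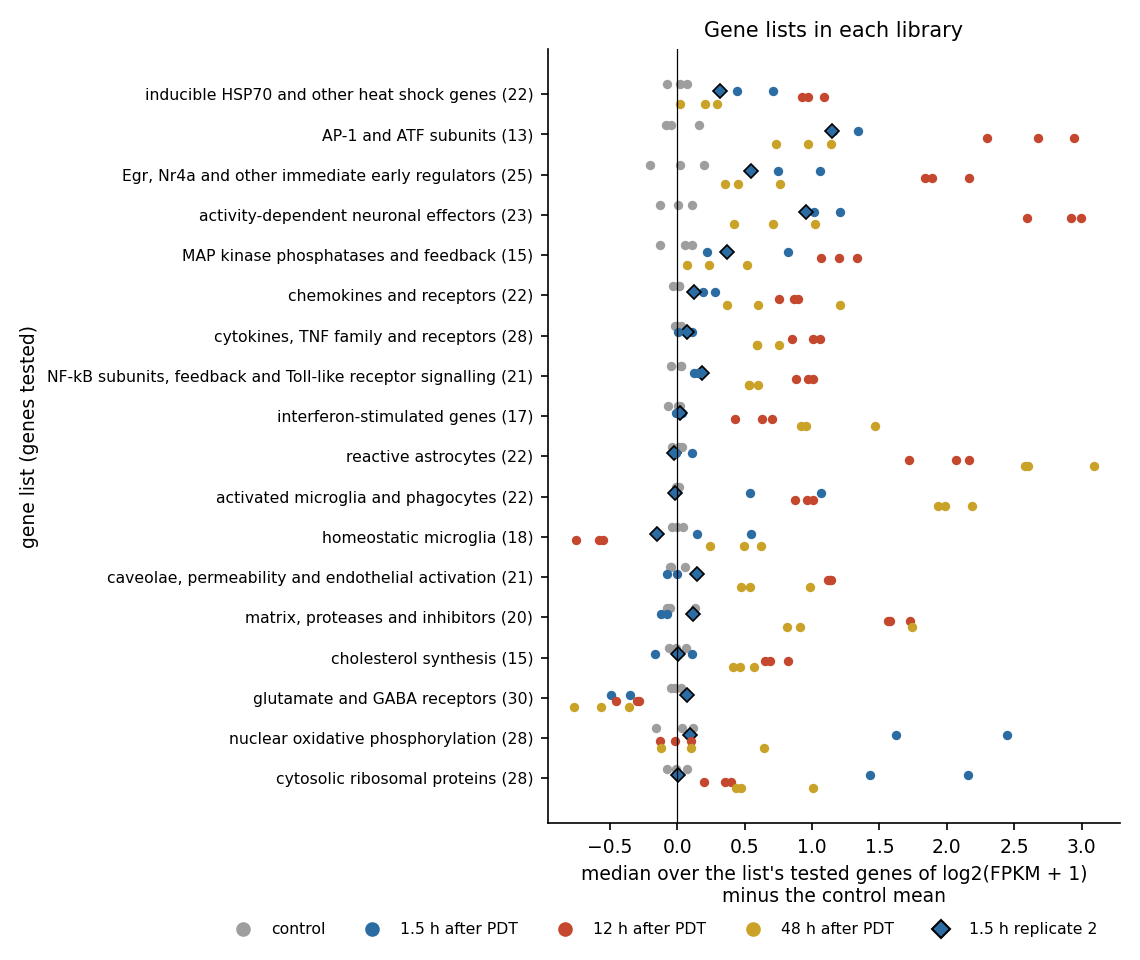
Median log2 difference from the control mean over the members of 18 gene lists (rows) in each library (points), with 1.5 h replicate 2 drawn as an outlined diamond. The reactive astrocyte, matrix and caveolae lists sit near 0 in the 1.5 h libraries and between about 1 and 2.2 at 12 h, the homeostatic microglia list lies below 0 at 12 h, and the oxidative phosphorylation list stands at 2.45 and 1.63 in 1.5 h replicates 1 and 3, above every other library.

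The inducible HSP70 genes rose from a level already above the controls at 1.5 h. Hspa1a, one of the 2 genes for the stress-inducible chaperone HSP70, read 111, 173 and 99.4 FPKM at 1.5 h and 1501, 1422 and 1378 FPKM at 12 h, a log2 change of 3.52 ± 0.24 (SE, adjusted p = 1.75e-05), with controls at 2.13 ± 0.722 FPKM (mean ± SD, n = 3). Its 1.5 h libraries lay above every control and its 12 h libraries formed a narrow group with a mean 11.2 times that of 1.5 h. Hspa1b, the other HSP70 gene, read 151, 249 and 136 FPKM and then 2307, 2137 and 2117 FPKM, a log2 change of 3.66 ± 0.28 (SE, adjusted p = 3.04e-05). Both had returned to 2.7 ± 0.908 and 3.54 ± 1.49 FPKM at 48 h. The 2 genes are near-identical copies, so how reads divide between Hspa1a and Hspa1b is uncertain. Replicate 2, which has no length trend, had the highest 1.5 h values of both, and the changes against it were 3.05 and 3.13.

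The 250 bases before the start of these HSP70 genes are shown because they carry the same candidate heat shock element in the same place (RefSeq, GRCm38.p6). Hspa1a lies at chr17:34972157-34972406, minus strand and Hspa1b at chr17:34959239-34959488, minus strand, and the sequences read 5′ to 3′ towards the gene, with capitals for an element of 2 facing units.
Hspa1a: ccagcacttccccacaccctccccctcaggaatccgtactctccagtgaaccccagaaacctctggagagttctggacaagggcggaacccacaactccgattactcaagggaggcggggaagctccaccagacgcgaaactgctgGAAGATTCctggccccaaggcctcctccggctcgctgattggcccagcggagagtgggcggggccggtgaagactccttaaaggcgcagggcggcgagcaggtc
Hspa1b: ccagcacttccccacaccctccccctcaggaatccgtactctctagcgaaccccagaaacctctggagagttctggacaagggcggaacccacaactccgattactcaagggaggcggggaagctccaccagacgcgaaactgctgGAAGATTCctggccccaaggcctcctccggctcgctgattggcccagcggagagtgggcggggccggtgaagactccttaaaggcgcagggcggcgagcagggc
In both, GAAGATTC lies 97 to 104 bases before the start, and the 2 sequences are the same at 247 of 250 bases. The letters searched were GAANNTTC and TTCNNGAA for 2 units, and for 3 units GAANNTTC followed by NNGAA or TTCNNGAA followed by NNTTC, which contain the 2-unit form. Each form reads the same on both strands or has its reverse among those searched. Of the 18 heat shock and co-chaperone genes that rose, 17 were matched by symbol to the RefSeq table, and 8 of them (47.1%) held the 2-unit form, against 30% of 20 members that did not rise and 14.5% of 27025 genes in the table. The 8 were Dnaja4, Dnajb4, Hspa1a, Hspa1b, Hspb1, Hspb6, Hspd1 and Hsph1. The 3-unit form stood in Hspd1 alone among the risers (5.88%), in 10% of the 20 members that did not rise and in 0.514% of all genes. A match describes letters in this window and shows no binding.

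Among the 22 heat shock genes tested, 13 rose and none fell, with a median change of 0.66 against -0.01 over all genes, and 9 of the 13 also rose against replicate 2 alone. The small heat shock protein Hspb1 read 38.97, 25.9 and 29.3 FPKM at 1.5 h and 121, 102 and 146 FPKM at 12 h, a log2 change of 1.94 ± 0.26 (SE, adjusted p = 5.00e-04). Its groups did not overlap. Hsph1, a nucleotide exchange factor for HSP70, changed by 2.13 ± 0.19 and Serpinh1, the collagen chaperone of the endoplasmic reticulum, by 2.0 ± 0.24 (log2, SE). Hspb8, which works with Bag3 to clear misfolded proteins, changed by 1.38, and the cytosolic HSP90 gene Hsp90aa1 and mitochondrial Hspd1 by 0.69 and 0.72. The call of Hsp90aa1 was lost without 1.5 h replicate 3, 12 h replicate 2 or the unnumbered one (adjusted p 0.0573 to 0.0733), and that of Hspb6, which did not pass against replicate 2, without 1.5 h replicate 3, 12 h replicate 1 or the unnumbered one (adjusted p 0.069 to 0.0736). The constitutive chaperone Hspa8 had a log2 difference of 0.30 ± 0.22 and did not pass (adjusted p = 0.306). Of 22 co-chaperones 5 rose, all of them also against replicate 2 alone, and 3 fell, none against replicate 2. Bag3 read 10.1, 8.84 and 6.31 FPKM and then 48.5, 42.5 and 46.9 FPKM, a log2 change of 2.34 ± 0.16 (SE, adjusted p = 1.41e-05). Dnajb1, the main partner of inducible HSP70, changed by 1.51 ± 0.15, Dnajb4 by 0.92, Dnaja4 by 0.82 and Dnajb9 by 0.42, the last a call lost without 1.5 h replicate 1, 12 h replicate 2 or the unnumbered one (adjusted p 0.0636 to 0.0742). The co-chaperone list as a whole was centred near 0 (0.07), and its median was -0.03 without replicate 2 of 1.5 h. In a list that joins endoplasmic reticulum stress and the integrated stress response, 9 of 28 genes rose and 4 fell. The falls were the endoplasmic reticulum stress genes Herpud1 (-0.67), Xbp1 (-0.69), Manf (-0.84) and Pdia6 (-0.49). None of these passed against replicate 2, while 6 rises did. The 6 were Atf3, Chac1 (1.27), Slc7a11 (1.33), Ppp1r15a (1.15), Sesn2 (0.95) and Atf5 (0.61), several of them targets of the kinase branch through ATF4, while the lumenal chaperone Hspa5 had a difference of 0.28 ± 0.18 and did not pass (adjusted p = 0.236).

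AP-1 genes were higher at 12 h than at 1.5 h, although this family is known for its speed after a stimulus. Of 13 AP-1 and ATF genes tested, 9 rose, none fell, and 8 also rose against replicate 2 alone, with a median change of 1.43. Atf3, a stress-induced member that pairs with Jun, read 16.97, 6.6 and 10.1 FPKM at 1.5 h and 154, 171 and 124 FPKM at 12 h, a log2 change of 3.70 ± 0.37 (SE, adjusted p = 1.04e-04). All 1.5 h libraries already lay above the control mean of 0.203 ± 0.0807 FPKM (SD, n = 3), and all 12 h libraries lay far above those. Fosb read 12.2, 47.9 and 94.4 FPKM and then 242, 228 and 197 FPKM, a log2 change of 2.50 ± 0.61 (SE, adjusted p = 0.0102), and Fosl2, a slower Fos relative, read 5.18, 12.9 and 10.03 FPKM and then 84.5, 87.3 and 65.8 FPKM, a log2 change of 3.02 ± 0.34 (SE, adjusted p = 2.00e-04). Neither overlapped between the times. Fos itself behaved less evenly, at 46.7, 139 and 401 FPKM and then 699, 553 and 376 FPKM. Replicate 3 of 1.5 h lay above the unnumbered 12 h library, so the groups overlapped, and the change of 1.92 ± 0.69 passed the threshold only narrowly (adjusted p = 0.0494) and did not pass against replicate 2. The call of Fos was lost without any one library other than 1.5 h replicate 3 (adjusted p 0.0576 to 0.18). Maff, Mafk, Batf, Fosl1 and Jun changed by 2.37, 1.43, 1.31, 1.77 and 0.98, all also against replicate 2 alone. Junb and Jund did not pass over the 3 libraries (adjusted p = 0.449 and 0.524), and Junb passed against replicate 2 alone (1.54, adjusted p = 0.0427).

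Other immediate early regulators rose with them. Of 25 tested, 17 rose and 1 fell, and 12 of the rises and not the fall also passed against replicate 2 alone. The orphan nuclear receptors Nr4a2 and Nr4a3 changed by 2.61 ± 0.38 and 2.94 ± 0.35, and Nr4a3 read 6.46, 10.3 and 9.1 FPKM at 1.5 h and 79.4, 82.2 and 56.2 FPKM at 12 h. No 12 h library of Nr4a3 overlapped the earlier ones. Klf6, Sik1, Csrnp1, the mRNA-decay factor Zfp36, Cebpd and Myc changed by 2.19, 2.15, 1.95, 2.01, 1.52 and 1.48. The classical Egr1 changed by 1.11 ± 0.39 (adjusted p = 0.0449) with a difference of 0.77 from replicate 2 alone that did not pass, and its call was lost without any one library other than 1.5 h replicate 2 (adjusted p 0.0758 to 0.156). Egr2, at 12.8, 15.95 and 28.96 FPKM and then 35.03, 22.2 and 19.4 FPKM, did not pass either way (adjusted p = 0.457). Ier5l was the 1 that fell (-1.08), with a difference of -0.36 from replicate 2 that did not pass.

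Genes that neurons induce with activity followed the same course, 18 of 23 rising and none falling, 12 of them also against replicate 2 alone. The median change was 1.33. Pcsk1, a convertase that processes prohormones, read 5.74, 13.2 and 10.45 FPKM and then 52.4, 61.1 and 49.7 FPKM, a log2 change of 2.42 ± 0.24 (SE, adjusted p = 9.60e-05). Ptgs2, the inducible cyclooxygenase, read 11.6, 17.9 and 42.2 FPKM and then 127, 103 and 80.5 FPKM, a log2 change of 2.24 ± 0.39 (SE, adjusted p = 0.00202). For both, all 12 h libraries lay above all 1.5 h libraries. Gadd45g, Nptx2, Scg2, Bdnf, Baz1a and Sorcs3 changed by 2.57, 2.21, 2.08, 1.98, 1.49 and 1.36. Npas4, a transcription factor specific to active neurons, read 102, 205 and 539 FPKM and then 1206, 959.8 and 777 FPKM, a log2 change of 2.10 ± 0.65 (SE, adjusted p = 0.0279). Replicate 3 was the highest of its 1.5 h libraries and the groups did not overlap, but the call was lost without 1.5 h replicate 1 or any one of the 12 h libraries (adjusted p 0.0541 to 0.104), and the difference of 2.23 from replicate 2 alone did not pass. Arc (1.33, a call lost without 1.5 h replicate 1 or any one of the 12 h libraries, adjusted p 0.0577 to 0.075) and Homer1 (1.37) likewise passed over the 3 libraries and not against replicate 2. Feedback inhibitors of MAP kinase rose in 11 of 15 cases and fell in none, 7 also against replicate 2, among them Errfi1 (1.81), Dusp5 (1.61), Dusp4 (1.37), Spry4 (1.29) and Spry2 (1.08). The early phosphatase Dusp1 had a difference of 0.36 ± 0.59 and did not pass (adjusted p = 0.648).

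Promoters of Fosb and Npas4 are shown as examples of the core of the cyclic AMP response element, the CREB motif of immediate early genes (RefSeq, GRCm38.p6, 250 bases before the start, 5′ to 3′ towards the gene, TGACG or its reverse CGTCA in capitals). Fosb lies at chr7:19310046-19310295, minus strand, and Npas4 at chr19:4989972-4990221, minus strand.
Fosb: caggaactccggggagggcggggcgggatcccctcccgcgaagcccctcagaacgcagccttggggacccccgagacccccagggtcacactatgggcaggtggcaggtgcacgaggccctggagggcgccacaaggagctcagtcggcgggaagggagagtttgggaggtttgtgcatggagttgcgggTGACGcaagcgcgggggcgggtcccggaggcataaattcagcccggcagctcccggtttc
Npas4: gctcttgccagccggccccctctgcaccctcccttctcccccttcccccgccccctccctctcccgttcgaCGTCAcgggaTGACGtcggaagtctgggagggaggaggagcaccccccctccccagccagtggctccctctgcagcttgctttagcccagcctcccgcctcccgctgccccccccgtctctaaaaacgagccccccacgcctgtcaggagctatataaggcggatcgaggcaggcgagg
In Fosb the core lies 56 to 60 bases before the start, and in Npas4 one copy lies at 165 to 169 and one on the other strand at 175 to 179. Over the immediate early lists, 31 of 41 rising members were matched to the table, and 20 (64.5%) held the core. The share was 64.3% in 14 members that did not rise, nearly the same, and 19.8% in all 27025 genes. The full palindrome TGACGTCA, which holds the core on each strand, stood in Maff, Pcsk1 and Scg2 (9.68% of the risers, 14.3% of the 14 members that did not rise and 1.77% of all genes). The CArG box, at which serum response factor binds, was found in Srf and Zfp36 among the risers (6.45%). It was found in 7.14% of the 14 and in 1.62% of all genes. The AP-1 site TGANTCA, read on both strands, was found in 3 of the 31 and in none of the 14, against 7.82% of all genes.

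Chemokines that attract monocytes and neutrophils were among the steepest rises. Of 22 chemokine and receptor genes tested, 14 rose and 2 fell, and 12 rises and no fall also passed against replicate 2 alone. Some members, Ccl11 and Cxcl1 among them, entered the test only through their 12 h values, so the count leans towards rises. Ccl3 read 2.26, 0.64 and 10.1 FPKM at 1.5 h and 64.03, 56.3 and 61.2 FPKM at 12 h, a log2 change of 3.98 ± 0.53 (SE, adjusted p = 5.00e-04), against 0.0249 ± 0.0431 FPKM in controls (mean ± SD, n = 3). Ccl4, its neighbour in the CC family, read 3.37, 0.557 and 18.4 FPKM and then 61.3, 69.6 and 68.7 FPKM, a log2 change of 3.73 ± 0.67 (SE, adjusted p = 0.00232). In both genes replicate 3 was the highest and replicate 2 the lowest at 1.5 h, and no library overlapped the other time. Ccl11, which attracts eosinophils, was listed at 0, 0 and 0.0661 FPKM at 1.5 h and read 9.4, 11.3 and 15.8 FPKM at 12 h (3.66 ± 0.56 on the log2(FPKM + 1) scale, adjusted p = 9.62e-04). Ccl9, Cxcl1, Ccl2, Ccl7 and Ccl12 changed by 2.56, 2.08, 1.88, 1.61 and 1.60. Cxcl1, a neutrophil attractant, read 0, 0.229 and 0.0762 FPKM and then 5.28, 2.78 and 3.18 FPKM. The receptor Ccr1 changed by 0.98. The genes that fell, neuronal Cx3cl1 (-0.44) and the scavenger receptor Ackr3 (-0.72), did not pass against replicate 2. Cx3cl1 turned to 0.15 under quantile normalization and 0.01 with equal library totals. Its call was lost without any one library other than 1.5 h replicate 2 (adjusted p 0.0526 to 0.124).

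Cytokine genes rose in 21 of 28 cases and fell in 2, and 16 rises and both falls also passed against replicate 2 alone. The rises include Il6, which entered the test only through its 12 h values. Il6 was listed at 0 in all 3 libraries of 1.5 h and read 1.48, 2.32 and 2.59 FPKM at 12 h (1.63 ± 0.15 on the log2(FPKM + 1) scale, adjusted p = 7.45e-05), so no fold is given. Csf1, the growth factor of microglia and macrophages, read 2.26, 1.9 and 2.08 FPKM and then 15.1, 16.1 and 18.8 FPKM, a log2 change of 2.51 ± 0.25 (SE, adjusted p = 9.97e-05). Its receptor gene Csf1r, read at 22.7, 19.9 and 16.9 FPKM and then 10.9, 10.4 and 10.7 FPKM, went the other way (-0.83 ± 0.12, adjusted p = 7.45e-04). Il34, another ligand of the same receptor, made by neurons, also fell, from 65.3, 34.9 and 47.98 FPKM to 13.6, 13.9 and 12.7 FPKM (-1.77 ± 0.24). In both genes every 12 h library lay below every 1.5 h library. Other rises were Il1rn, the natural blocker of the IL-1 receptor (2.74), the receptors Tnfrsf1a (2.24) and Osmr (2.01), and the IL-6 family ligands Clcf1 (1.56), Lif (1.34) and Osm (1.09). Tnf changed by 0.80 ± 0.14 and Il33, an alarmin, by 1.31 ± 0.22. Il1b read 2.5, 0.931 and 5.17 FPKM and then 2.02, 1.4 and 2.8 FPKM and did not pass (-0.20 ± 0.33, adjusted p = 0.649), and its difference from replicate 2 was 0.64.

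Within the NF-kB pathway 14 of 21 genes rose and 1 fell, 13 rises and the fall also against replicate 2 alone. Cd14, the co-receptor that presents lipopolysaccharide to Toll-like receptors, read 5.29, 4.29 and 15.9 FPKM at 1.5 h and 109.5, 76.2 and 90.8 FPKM at 12 h, a log2 change of 3.48 ± 0.34 (SE, adjusted p = 1.04e-04). Replicate 3 was the highest at 1.5 h and still lay below every 12 h library. Bcl3, a nuclear partner of the p50 and p52 subunits, changed by 2.45 ± 0.23 and the adhesion molecule Icam1 by 1.93 ± 0.21. The subunits Nfkb2, Nfkb1 and Rela changed by 1.37, 1.10 and 0.84. The regulators Nfkbiz, Tnfaip3 and Nfkbia, which are also targets of the pathway, changed by 1.15, 1.03 and 0.92. The call of Nfkbia was lost without 12 h replicate 1 or the unnumbered one (adjusted p 0.0589 to 0.0627). Tnip1 was the member that fell (-0.43). In the JAK-STAT list 8 of 13 rose and none fell, 5 also against replicate 2. Socs3, the inhibitor that STAT3 induces, read 1.14, 1.55 and 2.37 FPKM and then 33.4, 20.7 and 30.9 FPKM, a log2 change of 3.45 ± 0.25 (SE, adjusted p = 2.30e-05), with no overlap. Stat3 itself changed by 1.68 ± 0.17, and the kinase gene Pim1 by 1.89 ± 0.26.

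Promoters of Cxcl1, Nfkb2 and Csf1 are shown because each holds the kappaB consensus of NF-kB (RefSeq, GRCm38.p6, 250 bases before the start, 5′ to 3′ towards the gene, matches on either strand in capitals). Cxcl1 lies at chr5:90890995-90891244, plus strand, Nfkb2 at chr19:46304487-46304736, plus strand, and Csf1 at chr3:107760470-107760719, minus strand.
Cxcl1: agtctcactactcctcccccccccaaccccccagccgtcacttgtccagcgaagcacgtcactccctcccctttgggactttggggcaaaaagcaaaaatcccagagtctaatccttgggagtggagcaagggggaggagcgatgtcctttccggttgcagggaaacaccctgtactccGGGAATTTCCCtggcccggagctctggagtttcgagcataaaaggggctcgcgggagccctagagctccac
Nfkb2: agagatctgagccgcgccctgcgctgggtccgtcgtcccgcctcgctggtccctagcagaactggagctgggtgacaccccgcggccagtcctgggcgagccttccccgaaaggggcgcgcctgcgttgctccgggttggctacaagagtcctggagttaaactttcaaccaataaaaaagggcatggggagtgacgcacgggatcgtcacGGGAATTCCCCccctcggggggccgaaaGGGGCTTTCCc
Csf1: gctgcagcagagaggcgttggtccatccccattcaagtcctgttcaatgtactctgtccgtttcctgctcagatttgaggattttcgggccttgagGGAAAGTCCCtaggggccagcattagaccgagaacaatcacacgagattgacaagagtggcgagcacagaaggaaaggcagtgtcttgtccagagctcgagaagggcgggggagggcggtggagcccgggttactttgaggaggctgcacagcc
In Cxcl1 the matches GGGAATTTCC and GGAATTTCCC overlap at 61 to 71 bases before the start. Nfkb2 has 3 promoters in the table, and the one shown was picked for holding the consensus and then for the most upstream start. In it GGGAATTCCC lies at 30 to 39, GGAATTCCCC at 29 to 38 and GGGGCTTTCC at 2 to 11. In Csf1, GGAAAGTCCC lies at 145 to 154. Among the rising members of the chemokine, cytokine and NF-kB lists, 35 of 49 were matched, and 11 (31.4%) held the consensus, namely Ccl9, Csf1, Cxcl1, Cxcl2, Il1r1, Il6, Nfkb2, Nfkbia, Rel, Tlr2 and Tnfaip3. The share was 22.2% in 18 members that did not rise and 4.46% in all 27025 genes.

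**Figure D4:**
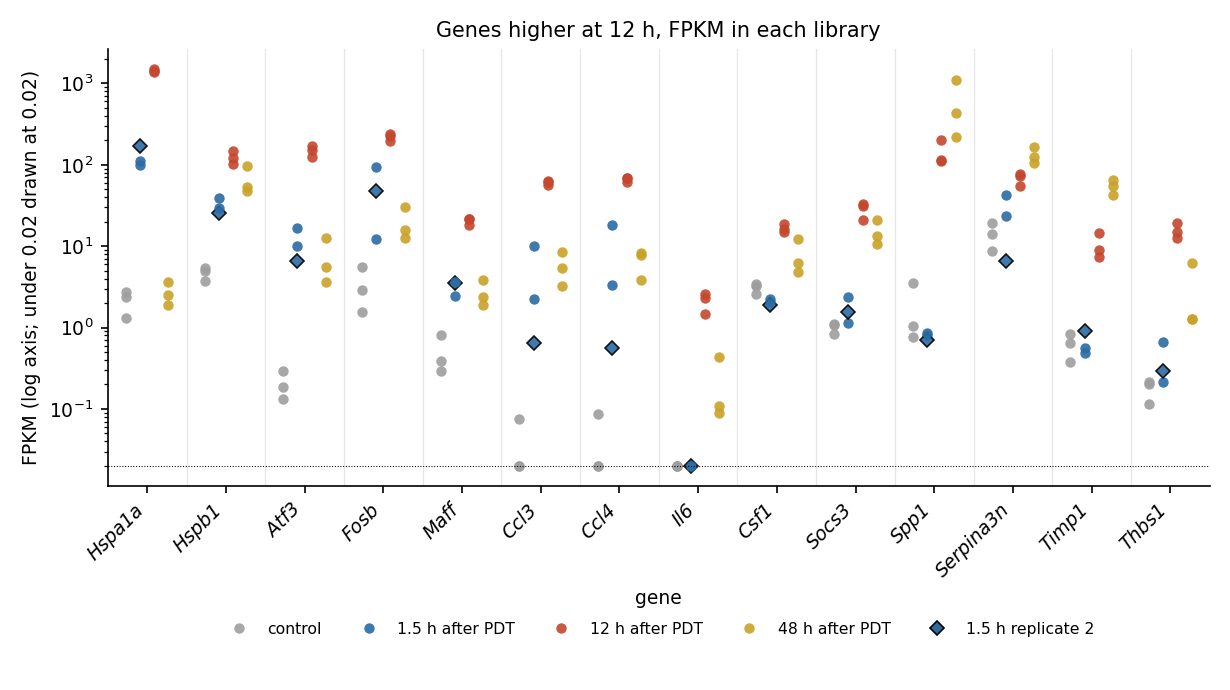
FPKM on a log axis (y) of 14 genes that rose (x), with 1 point per library coloured by group and 1.5 h replicate 2 as an outlined diamond, and values under 0.02 drawn at 0.02. In these genes the 12 h points lie above the 1.5 h points, from the narrow groups of Hspa1a to the wide 1.5 h spread of Ccl3 and Ccl4.

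Among interferon-stimulated genes, 10 of 17 rose and none fell, 4 of them also against replicate 2 alone. Ifitm3, which blocks virus entry, read 15.3, 5.6 and 8.22 FPKM at 1.5 h and 36.7, 27.7 and 39.2 FPKM at 12 h, a log2 change of 1.82 ± 0.28 (SE, adjusted p = 0.00111), without overlap, and Gbp2 changed by 1.50 ± 0.21. Irf7 and Isg15, common markers of a type I interferon response, did not pass (adjusted p = 0.328 and 0.509). In the antigen presentation and complement list 6 of 19 rose and none fell, 4 also against replicate 2. The largest was complement C4b, at 1.1 ± 0.318 FPKM and then 11.3 ± 1.11 FPKM (mean ± SD, n = 3), a log2 change of 2.55 ± 0.21 (SE, adjusted p = 4.46e-05), followed by the anaphylatoxin receptors C5ar1 (1.53) and C3ar1 (1.49). The C1q chains C1qa, C1qb and C1qc, made by microglia, did not pass over the 3 libraries (adjusted p = 0.224, 0.963 and 0.745). Against replicate 2 alone they passed as rises, by 0.43, 0.97 and 0.81 (adjusted p = 0.0458, 0.00205 and 0.014).

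Genes that mark resting microglia made up the 4 largest falls among genes of at least 500 bases, at a mean of at least 1 FPKM and with non-overlapping groups. P2ry12, the ADP receptor that steers microglial processes, read 15.1, 7.91 and 10.1 FPKM at 1.5 h and 0.679, 0.681 and 0.715 FPKM at 12 h, a log2 change of -2.79 ± 0.22 (SE, adjusted p = 3.21e-05). The 12 h libraries lay within 0.1 FPKM of one another and far below the lowest 1.5 h library, which was replicate 2. Tmem119 read 18.99, 8.97 and 12.3 FPKM and then 1.32, 1.71 and 1.98 FPKM, a log2 change of -2.38 ± 0.24 (SE, adjusted p = 1.04e-04). Selplg, the selectin ligand, read 11.7, 4.5 and 7.65 FPKM and then 0.70, 0.87 and 0.75 FPKM, a log2 change of -2.25 ± 0.25 (SE, adjusted p = 1.86e-04). Crybb1, a crystallin found in microglia, read 19.1, 7.34 and 12.8 FPKM and then 0.945, 0.943 and 0.893 FPKM, a log2 change of -2.78 ± 0.27 (SE, adjusted p = 9.46e-05). In each the groups were apart, and the changes against replicate 2 were -2.40, -1.91, -1.63 and -2.11. Gpr34, a lysophospholipid receptor, fell by the test as well (-1.67 ± 0.22, and -1.27 against replicate 2). By 48 h P2ry12 and Tmem119 read 7.86 ± 2.0 and 13.3 ± 3.21 FPKM (mean ± SD, n = 3), and Crybb1 1.79 ± 0.461 FPKM.

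Not all microglial genes followed. Of 18 homeostatic members 9 fell, 7 also against replicate 2 alone, and Gpr84, a receptor induced in inflammation, rose (0.84). Cx3cr1, the fractalkine receptor of the same cells, read 5.04, 6.04 and 4.3 FPKM and then 3.41, 3.74 and 4.27 FPKM and did not pass (-0.34 ± 0.17, adjusted p = 0.125). In tissue RNA a smaller number of cells and less RNA per cell cannot be told apart. The phagocyte list rose in 10 of 22 members and fell in 2, with 9 rises and no fall also passing against replicate 2. Besides Spp1 and Ccl3, these included Lgals3, a galectin of phagocytes (2.21 ± 0.33), the scavenger receptor Msr1 (1.89 ± 0.30), Cd44 (2.05) and the lysosomal Cd68 (1.38). Trem2 (-1.0) and Aif1 (-1.15), which encode a microglial lipid receptor and IBA1, fell over the 3 libraries and did not pass against replicate 2. The call of Aif1 was lost without any one library other than 1.5 h replicate 2 (adjusted p 0.0686 to 0.106).

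**Figure D5:**
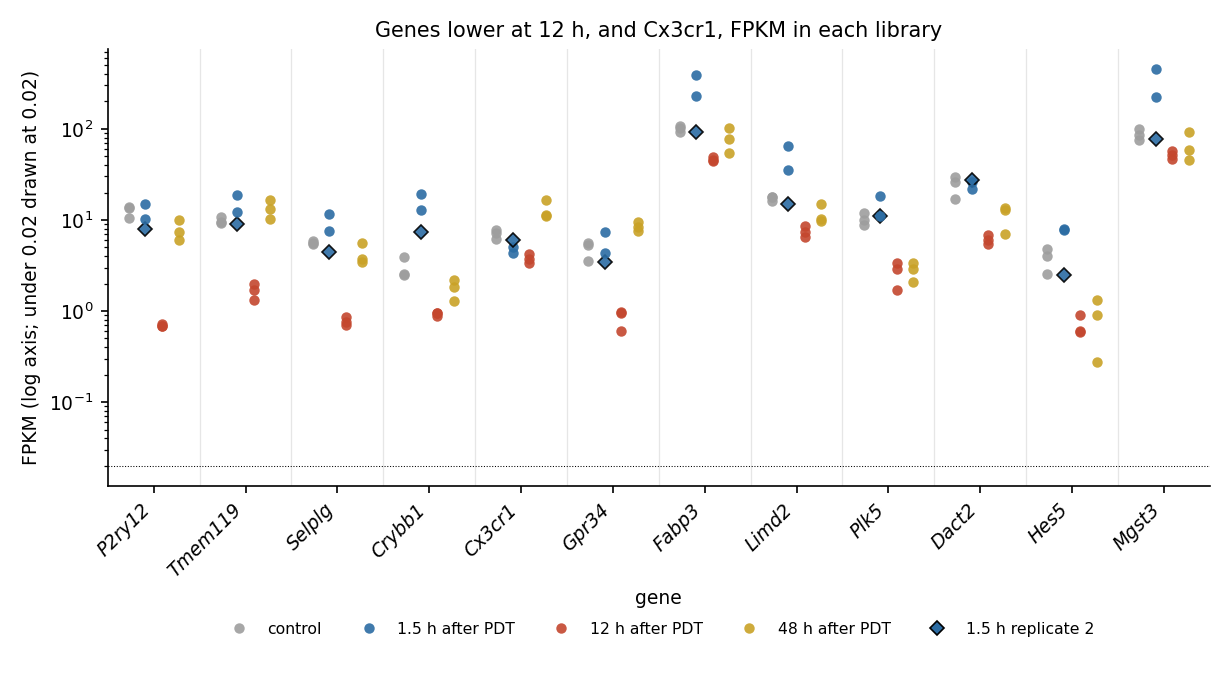
FPKM on a log axis (y) of 12 genes (x), 11 that fell and Cx3cr1, which did not pass, with 1 point per library coloured by group and 1.5 h replicate 2 as an outlined diamond. For P2ry12, Tmem119, Selplg, Crybb1, Mgst3 and Hes5 the 12 h points lie below all 1.5 h points. In each of these genes replicate 2 is the 1.5 h point nearest to the 12 h points.

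Reactive astrocyte genes moved together. Of 22 tested, 20 rose and none fell, 19 also against replicate 2 alone, with a median change of 1.93 (1.96 against replicate 2). Gfap, the astrocyte intermediate filament, read 28.9, 8.86 and 29.4 FPKM at 1.5 h and 167, 141 and 179 FPKM at 12 h, a log2 change of 2.97 ± 0.40 (SE, adjusted p = 5.11e-04). Vim, another filament gene, read 5.64, 3.36 and 4.07 FPKM and then 40.5, 30.2 and 38.3 FPKM, a log2 change of 2.81 ± 0.23 (SE, adjusted p = 4.13e-05). All 12 h libraries of both lay above all earlier ones. Emp1, a membrane protein of stressed glia, read 0.111, 0.144 and 0.133 FPKM and then 13.3, 7.64 and 10.52 FPKM, a log2 change of 3.32 ± 0.24 (SE, adjusted p = 2.30e-05). It entered the test only through its 12 h values. Ptx3, Timp1, Tgm1, Tm4sf1, Lcn2, Nes and Serpina3n changed by 2.86, 2.73, 2.43, 2.14, 2.04, 1.87 and 1.77. The call of Serpina3n was lost without 12 h replicate 1 or the unnumbered one (adjusted p 0.0626 to 0.0666). At 48 h Gfap and Serpina3n stood at 534 ± 97.2 and 133 ± 31.3 FPKM (mean ± SD, n = 3), above their 12 h means of 162 ± 19.2 and 68.2 ± 11.3. S100a10 and S100a6 did not pass (adjusted p = 0.301 and 0.739). Of the markers of resting astrocytes, 6 of 20 rose and 2 fell, and Sox9, an astrocyte transcription factor, was the member that also rose against replicate 2 (1.52 ± 0.19). Hes5, a Notch target, fell over the 3 libraries from 7.73, 2.47 and 7.92 FPKM to 0.585, 0.909 and 0.599 FPKM (-1.94 ± 0.35) and did not pass against replicate 2, which was the lowest of its 1.5 h libraries.

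Genes of endothelial activation rose at 12 h. Of 21 genes for caveolae, permeability and endothelial activation, 18 rose and none fell, 16 also against replicate 2 alone, with a median change of 1.27. Angpt2, the ligand that loosens vessels by antagonising Tie2, read 0.245, 0.697 and 0.116 FPKM at 1.5 h and 9.8, 8.9 and 8.44 FPKM at 12 h, a log2 change of 2.91 ± 0.16 (SE, adjusted p = 5.46e-06). Adamts1, a protease of the extracellular matrix, read 0.839, 5.44 and 3.67 FPKM and then 34.2, 29.6 and 21.96 FPKM, a log2 change of 2.94 ± 0.39 (SE, adjusted p = 4.61e-04). Neither overlapped. The vasoconstrictor Edn1, the membrane-coat gene Cavin1, the thrombin receptor Thbd and the leukocyte ligand Vcam1 changed by 2.68, 1.93, 1.67 and 0.96. Plvap, a component of leaky vessels, read 15.7, 7.0 and 13.1 FPKM and then 9.77, 9.88 and 8.82 FPKM and did not pass (-0.24 ± 0.22, adjusted p = 0.406), with its sign turned, at 0.39, against replicate 2.

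Endothelial identity genes rose in 12 of 20 cases and fell in 2, with 5 rises and both falls also against replicate 2 alone. Ly6a read 4.92, 2.08 and 2.67 FPKM and then 35.6, 38.04 and 39.9 FPKM, a log2 change of 3.26 ± 0.33 (SE, adjusted p = 1.16e-04), and the junction gene Cdh5 and the adhesion gene Pecam1 changed by 2.56 ± 0.37 and 2.20 ± 0.29. Itm2a (-1.40) and Cd34 (-0.90) fell. Of 22 genes for tight junctions and barrier transporters 9 rose and 1 fell, with 5 and 1 also passing against replicate 2. Cldn5, the main claudin of brain endothelium, read 12.4, 16.6 and 12.3 FPKM and then 29.99, 26.7 and 26.2 FPKM, a log2 change of 0.96 ± 0.15 (SE, adjusted p = 9.57e-04), with every 12 h library above the earlier ones. The lactate transporter Slc16a1 changed by 1.31, Ocln did not pass (0.34 ± 0.19, adjusted p = 0.163), and the organic anion transporter Slc22a8 fell (-0.96). Pericyte and smooth muscle genes were mixed, with 6 of 11 rising and 3 falling, among them Acta2 (1.29) and Kcnj8 (1.36) up and Vtn (-1.21) down, all also against replicate 2.

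Matrix genes and their inhibitors rose in 14 of 20 cases and fell in none, 11 also against replicate 2 alone, with a median change of 1.70. Thbs1, a matrix glycoprotein that activates TGF-beta, read 0.217, 0.292 and 0.659 FPKM at 1.5 h and 19.2, 15.1 and 12.7 FPKM at 12 h, a log2 change of 3.58 ± 0.37 (SE, adjusted p = 1.17e-04). Timp1, an inhibitor of metalloproteinases, read 0.556, 0.897 and 0.483 FPKM and then 8.91, 7.32 and 14.4 FPKM, a log2 change of 2.73 ± 0.23 (SE, adjusted p = 4.60e-05). Both were below 1 FPKM in every 1.5 h library and above 5 in every 12 h library. The urokinase receptor Plaur, urokinase Plau, tenascin Tnc, the basement membrane collagen Col4a1 and the protease Mmp3 changed by 2.14, 1.88, 1.80, 1.83 and 1.60.

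Neuronal genes outside the activity list are read beside all genes, of which 7.28% rose and 3.86% fell in both comparisons. Of 30 glutamate and GABA receptor genes none rose and 4 fell, all 4 also against replicate 2. Gabrd, the GABA-A subunit of tonic inhibition, read 57.4, 38.6 and 36.6 FPKM at 1.5 h and 23.2, 21.01 and 20.4 FPKM at 12 h, a log2 change of -0.98 ± 0.19 (SE, adjusted p = 0.00338). Grm2 and Grm3, metabotropic glutamate receptors, changed by -0.94 and -0.58, and the call of Grm3 was lost without 12 h replicate 2 or the unnumbered one (adjusted p 0.0527 to 0.0542). Among 35 potassium, sodium and calcium channel genes 6 rose, none against replicate 2, and 2 fell, of which Hcn2 (-0.55) also fell against it. Of 27 synaptic vesicle genes 2 rose and 4 fell, with Syt4 (1.16) and Syp (-0.63) passing both ways. The medians of these lists changed sign between the settings, the synaptic one from 0.16 over the 3 libraries to -0.34 against replicate 2, so no direction is given for them as groups. Of the monoamine, adenosine and acetylcholine receptors, Htr1b (1.79) and Adra1a (0.90) rose, and Htr1a (-1.43), Adra2c (-1.53) and Chrm1 (-1.03) fell, each also against replicate 2, while that list's median was negative here and 0.27 with equal library totals.

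Of the neuropeptide genes, 7 of 18 rose and 3 fell, and 6 rises and no fall also against replicate 2 alone. Nts, which encodes neurotensin, read 5.41, 0.932 and 7.96 FPKM at 1.5 h and 39.7, 64.3 and 123.2 FPKM at 12 h, a log2 change of 3.85 ± 0.57 (SE, adjusted p = 8.30e-04). The 12 h libraries of Nts differed by more than 3-fold among themselves, but none overlapped the earlier time. Adcyap1, the precursor of PACAP, read 6.07, 6.57 and 9.89 FPKM and then 36.4, 54.02 and 28.3 FPKM, a log2 change of 2.23 ± 0.36 (SE, adjusted p = 0.00147). Tac1, Crh and Oxt changed by 1.40, 1.30 and 1.62. Oxt encodes oxytocin, a peptide of the hypothalamus. Among axon injury genes 7 of 14 rose, 4 also against replicate 2, with Tubb6 (2.87 ± 0.17) and Sox11 (1.21 ± 0.14) beside Atf3 and Klf6, whereas Gap43 did not pass (adjusted p = 0.105). Plk5, a brain polo-like kinase relative, fell from 18.2, 11.04 and 11.2 FPKM to 1.71, 3.4 and 2.93 FPKM (-1.97 ± 0.23), and Dact2, which modulates Wnt signals, from 26.2, 27.4 and 21.9 FPKM to 6.9, 5.45 and 6.0 FPKM (-1.88 ± 0.24). Neither of these overlapped.

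Myelin genes rose in 6 of 20 cases, 2 of them, Cldn11 (1.23) and Sox10 (1.19), also against replicate 2, and none fell. The call of Cldn11 was lost without 1.5 h replicate 3, 12 h replicate 1 or the unnumbered one (adjusted p 0.0598 to 0.0634). Mbp, the myelin basic protein gene, had a difference of 0.36 ± 0.35 and did not pass (adjusted p = 0.435). Of 10 markers of oligodendrocyte precursors, 4 rose over the 3 libraries and none against replicate 2.

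Cholesterol synthesis genes rose as a group, 11 of 15 rising, none falling and 9 also rising against replicate 2 alone, with a median change of 0.79. Hmgcs1, an early enzyme of the pathway, read 27.5, 32.9 and 36.5 FPKM at 1.5 h and 93.01, 70.9 and 64.1 FPKM at 12 h, a log2 change of 1.20 ± 0.16 (SE, adjusted p = 5.64e-04). Cyp51, a later enzyme, and Insig1, a feedback regulator, changed by 1.23 and 1.05. Targets of hypoxia-inducible factor and glycolysis rose in 9 of 23 cases and fell in 1, with 5 rises and no fall also against replicate 2. They were Adm, a vasodilator peptide (2.19 ± 0.22), Pfkfb3 (1.42), the neuronal glucose transporter Slc2a3 (1.18), Hk2 (0.94) and Vegfa (0.87). Gapdh read 5.8, 4.03 and 4.15 FPKM and then 42.1, 4.75 and 41.1 FPKM, with 12 h replicate 2 at the earlier level, and it counts among the 9, a call lost without 1.5 h replicate 3, 12 h replicate 1 or the unnumbered one (adjusted p 0.0729 to 0.0977). The genome holds many near-identical copies of Gapdh, so its values are uncertain. Glucocorticoid-induced genes rose in 8 of 20 cases, 5 also against replicate 2, led by Lcn2 (2.04), Angptl4 (1.97), Errfi1 (1.81) and Pdk4 (1.70), and the standard reporters Fkbp5 and Tsc22d3 did not pass (adjusted p = 0.791 and 0.532).

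Clock genes are given because the hour of collection is not in the labels and the times differ by many hours, so time after treatment and time of day cannot be told apart. Of 21 tested 4 rose and 3 fell, and 2 of each also passed against replicate 2, namely Nfil3 (1.60) and Csnk1d (0.76) up and Arntl (-0.62) and Nr1d1 (-0.61) down. The call of Nr1d1 was lost without any one library other than 1.5 h replicate 1 (adjusted p 0.0539 to 0.112). Dbp, an output gene with a strong daily rhythm, read 26.4, 13.9 and 25.2 FPKM at 1.5 h and 9.48, 6.93 and 6.06 FPKM at 12 h (-1.40 ± 0.30, adjusted p = 0.00549), and did not pass against replicate 2. Per1 and Per2 did not pass (adjusted p = 0.0697 and 0.175).

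Heme genes, which include the pathway that makes the photosensitizer, are read beside all genes, of which 18.3% rose and 17.9% fell. Of 22 heme genes 3 rose and 5 fell, and 1, the heme scavenger Hpx (1.31 ± 0.14), also rose against replicate 2. Alas1, the first and limiting enzyme whose product is 5-ALA, read 15.7, 10.97 and 13.6 FPKM at 1.5 h and 10.2, 9.12 and 9.22 FPKM at 12 h (-0.45 ± 0.13), with a difference of -0.19 from replicate 2 that did not pass, and its call was lost without 1.5 h replicate 1 or 3, 12 h replicate 2 or the unnumbered one (adjusted p 0.0607 to 0.0669). Fech, which inserts iron into protoporphyrin IX, did not pass (-0.29 ± 0.11, adjusted p = 0.0552). Hmox1, the heme oxygenase that oxidative stress induces, read 21.2, 8.81 and 6.82 FPKM and then 43.2, 31.7 and 41.9 FPKM, a log2 change of 1.73 ± 0.59 (SE, adjusted p = 0.0397). Replicate 1 was the highest at 1.5 h and the groups did not overlap, yet the difference of 2.01 from replicate 2 alone did not pass (adjusted p = 0.121), and the call was lost without 1.5 h replicate 2 or 3 or any one of the 12 h libraries (adjusted p 0.0616 to 0.135). In a list of antioxidant enzymes and targets of NRF2, the antioxidant regulator, 10 of 27 genes rose and 7 fell. Those that rose against replicate 2 as well numbered 7, among them Slc7a11 (1.33), Srxn1 (1.09), Txnrd1 (0.97) and Gclm (0.73), and the 1 fall was Keap1 (-0.59), the NRF2 inhibitor. The falls of Txn1 (-1.41), Gsta4 (-1.33), Prdx2 (-1.16) and Gpx1 (-0.98) did not pass against it, and each call was lost without 1.5 h replicate 1 or 3 or at least 2 of the 12 h libraries in turn (adjusted p 0.0554 to 0.136). The 3 metallothionein genes did not pass in limma over the 3 libraries (2 at an unadjusted p under 0.05), and Mt1 (2.07, adjusted p = 0.00167) and Mt2 (1.09, adjusted p = 0.0402) passed as rises against replicate 2 alone. Mt2 read 3.78, 1.67 and 4.25 FPKM and then 4.86, 5.37 and 3.85 FPKM with replicate 2 the lowest of the 1.5 h libraries. Iron genes rose in 5 of 9 cases, and Lcn2 (2.04) and Cp (1.05) also against replicate 2.

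Growth arrest and death genes changed in both directions. Of 19 p53 targets 10 rose and 2 fell, with 5 and 1 also against replicate 2 alone. Cdkn1a, the cell cycle inhibitor p21, read 16.9, 15.1 and 19.9 FPKM at 1.5 h and 53.8, 44.3 and 40.5 FPKM at 12 h, a log2 change of 1.37 ± 0.35 (SE, adjusted p = 0.0131), with a difference of 1.54 from replicate 2 that did not pass (adjusted p = 0.0788). Fas, the death receptor, changed by 1.43 ± 0.13 and Sesn1 by -0.87 ± 0.18, both also against replicate 2. Of 21 death genes 6 rose and 2 fell, 4 rises also against replicate 2, namely the survival factor Mcl1 (1.11), Casp8 (0.74), Ripk1 (0.67) and Ripk3 (0.87). Bax (-0.99) and Bad (-1.22) fell over the 3 libraries, with differences of -0.04 and -0.35 from replicate 2 that did not pass. The call of Bax was lost without any one library other than 1.5 h replicate 2 (adjusted p 0.0713 to 0.107).

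Genes of basic energy and protein metabolism stood high in replicates 1 and 3 of 1.5 h. Of 28 nuclear genes for oxidative phosphorylation 22 fell, and none of them fell against replicate 2 alone. Relative to the control mean, the median member stood at 2.45, 0.10 and 1.63 at 1.5 h and at -0.13, 0.10 and -0.02 at 12 h. Replicate 2 and the 12 h libraries lay near the controls, and replicates 1 and 3 lay far above. Uqcr11, a subunit of complex III, read 856, 169.9 and 534 FPKM at 1.5 h and 122, 136 and 129 FPKM at 12 h, a call lost without 1.5 h replicate 1 or 3 or 12 h replicate 1 (adjusted p 0.0512 to 0.0615). Of 16 proteasome genes 5 fell, none against replicate 2, and of 28 cytosolic ribosomal protein genes none passed in limma, with 11 of them at an unadjusted p under 0.05 and medians of -0.85 over the 3 libraries and 0.29 against replicate 2. Mitochondrial reads and the length trend move with these values. With the length trend removed, the medians were -1.15 for oxidative phosphorylation, -0.63 for ribosomal proteins and -0.53 for the proteasome. Without that step they were -1.38, -0.85 and -0.70, and against replicate 2 alone -0.10, 0.29 and 0.08. The part of mitochondrial reads was not tested.

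Noncoding RNAs were also tested. Neat1, the RNA scaffold of paraspeckles, read 3.22, 3.21 and 2.92 FPKM at 1.5 h and 17.9, 17.3 and 17.9 FPKM at 12 h, a log2 change of 2.19 ± 0.31 (SE, adjusted p = 6.70e-04), with narrow groups that did not overlap. Rn7sk, a short RNA that holds back transcription elongation, read 530, 77.5 and 128 FPKM and then 104, 74.9 and 73.04 FPKM and did not pass (adjusted p = 0.177). Among the 47 sense intronic genes 20 rose and none fell, 11 also against replicate 2, with medians of 0.45 and 0.39, though reads of these genes cannot be told from those of the genes they lie in. Among 121 small nucleolar RNA genes 20 rose and 2 fell, with 7 and 2 also against replicate 2. Both shares of rises are close to those of all genes, 18.3% and 7.28%. The widest rises under 500 bases were those of the noncoding Gm20005, at 0, 2.05 and 0.239 FPKM and then 24.01, 37.1 and 34.4 FPKM (4.38 ± 0.41), and of the pseudogenes Gm11843, Gm8696 and Gm5566 and the small nucleolar RNA gene Gm22501, with changes of 3.42, 3.39, 3.09 and 3.01. Pseudogenes can take reads of their parent genes, so these are uncertain. The widest falls under 500 bases were Rps27rt (-2.31), mt-Atp8 (-2.20), Gm16418 (-1.90), mt-Nd3 (-1.76) and Rps27a-ps2 (-1.73), of which mt-Atp8 and Rps27a-ps2 also fell against replicate 2. The calls of Rps27rt, Gm16418 and mt-Nd3 were lost without 1.5 h replicate 1 or 3, among others (adjusted p 0.061 to 0.116).

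Calls that turned direction against replicate 2 alone numbered 6 rises and 35 falls, none past the threshold in the opposite direction. The long genes Trio and Csmd2 show the form this took. Trio, a guanine exchange factor, read 6.06, 14.2 and 6.76 FPKM at 1.5 h and 15.1, 14.4 and 12.3 FPKM at 12 h, so that replicate 2 sat among the 12 h libraries and replicates 1 and 3 below them. Csmd2 read 2.23, 6.74 and 2.11 FPKM and then 6.87, 6.78 and 5.75 FPKM. Among the falls, Rsph9, a ciliary spoke gene, read 22.5, 3.82 and 12.8 FPKM and then 4.02, 3.75 and 4.43 FPKM, with the opposite order. Gm13443, a pseudogene, read 21.1, 0.11 and 25.2 FPKM and then 0.838, 0 and 0.34 FPKM. The calls of all 4 were lost without any one library other than 1.5 h replicate 2 (adjusted p 0.0704 to 0.172).

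Markers of single brain regions form short lists, read beside all genes, of which 18.3% rose and 17.9% fell. Of 12 striatal, 7 thalamic and 7 hippocampal markers 1, 0 and 1 rose and none fell (none of the thalamic ones at an unadjusted p under 0.05 in limma), and of 5 cerebellar and 8 cortical markers none rose and 2 of each fell. The marker lists themselves differed between the 1.5 h libraries. From the control mean, the striatal median stood at -1.185, 0.39 and -1.18 and the hippocampal one at 0.93, -0.77 and 0.81. The striatal median changed by 0.52 over the 3 libraries and by -0.775 against replicate 2. For the hippocampal list these were 0.09 and 0.96, and -0.46 without replicate 2. Whether the region sampled differed was not tested. Single markers varied widely between libraries of one time. Ttr, the transthyretin gene of the choroid plexus, read 5.54, 1.96 and 439 FPKM at 1.5 h and 708, 296 and 535 FPKM at 12 h, with replicate 3 within the range of the 12 h libraries, so the groups overlapped, and the call (adjusted p = 0.0467) was lost without any one library other than 1.5 h replicate 3 (adjusted p 0.0803 to 0.151). Of 11 choroid plexus and ependymal genes, Ttr and Foxj1 rose, and the call of Foxj1 was lost without 1.5 h replicate 1 or 3, 12 h replicate 1 or the unnumbered one (adjusted p 0.0872 to 0.112). Haemoglobin Hbb-bs read 212, 7.26 and 6.05 FPKM and then 28.1, 6.05 and 4.01 FPKM, highest in replicate 1 of 1.5 h, and did not pass. Neutrophil genes S100a8 and S100a9 did not pass either.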

How the data were processed

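Whole-transcriptome sequencing was done on mouse brain RNA. The deposited table gives FPKM per gene for 12 libraries. Per the submitters' processing notes the tools were Bowtie 0.12.2 and the build mm8, yet 98.33% of the 54409 gene IDs shared with GENCODE M21 have the same start and end as in GRCm38, so promoters were taken from GRCm38.p6. The authors' FPKM values carry a scaling between libraries, as the steps of the deposited values show, and whole reads recovered from the FPKM steps (tolerance 0.05) were used for depth only. The 12 h column whose number matches no title was kept as an unnumbered replicate of its group.

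Genes above 0.5 FPKM in at least 3 of the 6 libraries were tested with limma 3.58.1 (R 4.3.3, eBayes with trend) on log2(FPKM + 1), which understates changes of low genes, over all 12 libraries in 4 groups (residual degrees of freedom 8, prior 3.11). "Adjusted p" is the Benjamini-Hochberg value over all 16291 genes, called at 0.05. The test against replicate 2 alone takes that library as the 1.5 h group and assumes that it varies like the other groups. Genes named are the 15 widest rises and falls, up to 3 rises and falls per list, fixed genes, the 5 widest under 500 bases, the 4 with turned sign, and the 5 widest against replicate 2. Further list members were named after their values were seen. Members and lists were chosen with earlier results of these data known. Alternatives covered filter, pseudocount, scaling, length trend, weights, block and single libraries. The script was tested on simulated data. Motif windows are the 250 bases before each RefSeq start. Genes were matched to promoters by symbol. Some genes of the lists are counted but not reported here by name.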

Additional observations from a re-analysis of the deposited data

How the results depend on the processing

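The counts of 2981 rises and 2921 falls moved with the setting. With only the 6 libraries compared they were 1735 and 835, with library weights 6076 and 6109 (that weighting gave 1.5 h replicate 3 a weight of 7.78 and replicate 2 0.0909), against replicate 2 alone 1475 and 1027, and, in an alternative chosen after seeing the data, against replicate 2 with the length trend removed 1492 and 1135. Leaving out each library in turn gave 2068 to 4681 rises and 1466 to 4929 falls, and both upper values came without 1.5 h replicate 2. Equal library totals left 966 falls (78.3% of calls were rises, against 50.5%). The share of rises was 67.5% with only 6 libraries and 61.2% with no filter on low values. The numbers 1 and 2 that both times carry did not pair the libraries (correlations of deviations -0.17 and -0.11), and a replicate block gave 982 rises and 278 falls, 77.9% of them rises. Of 243 named genes, 232 were called and 116 kept their call in every setting run, and leaving out 1 library ended 4 to 46 calls. Against replicate 2 alone, signs turned for Hspbp1 (0.00239), Alad (0.142), Il1b (0.644), Plvap (0.39), Rn7sk (0.0941), Gm9938 (-0.0688), AC165271.1 (-0.0652), Csmd2 (-0.0561), Trio (-0.0364), Gm13443 (0.282), Inka1 (0.0826), Rsph9 (0.0695) and Pcgf1 (0.0585). With equal library totals they turned for G6pdx (0.0345), Cx3cl1 (0.0113), Fech (0.14), Il1b (0.13), Cx3cr1 (0.0126) and Plvap (0.184). With quantile normalization the sign turned for Cx3cl1 (0.146). With library weights it turned for Egr2 (-0.268). Against replicate 2 with the length trend removed, signs turned for Alad (0.122), Il1b (0.625), Plvap (0.372), Gm9938 (-0.091), AC165271.1 (-0.101), Csmd2 (-0.0259), Gm13443 (0.211), Inka1 (0.0447), Rsph9 (0.0445) and Pcgf1 (0.0343). With the length trend removed over all libraries they turned for Il1b (0.0728) and Plvap (0.0294). Without 1.5 h replicate 3 the sign turned for Il1b (0.215). Leaving out each library in turn gave Il1b changes from -0.623 to 0.215. The cause was not tested.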

Other observations

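Cd3e, a chain of the T cell receptor complex, read 10.3, 8.73 and 3.8 FPKM at 12 h and 0, 0.060 and 0 FPKM at 1.5 h, a log2 change of 2.99 ± 0.25 (SE, adjusted p = 4.46e-05). Cd3e entered the test only through its 12 h values, so the filter largely set its direction in advance. The other chains of the complex read far lower. Cd3d read 0.0366, 0.0341 and 0.104 FPKM and Cd3g 0.061, 0.019 and 0.0192 FPKM at 12 h, both under the filter, and Cd247 was at most 0.0624 FPKM there. At 48 h Cd3e read 0.0393, 0 and 0 FPKM. Cd3e was chosen from the leukocyte list, and Cd3d, Cd3g and Cd247 after its values were seen.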
